A study of Schmidtea mediterranea with 24 samples.

Results

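Of the 26563 contigs measured in whole planarians, 58 were lower in every animal given nkx1-1 RNAi than in every control of the same feeding schedule and were not lowered past a set limit after myoD RNAi. These 58 contigs were chosen by their measured values, from 15382 contigs with a mean of at least 1 CPM over the 24 libraries. CPM is the count of a contig per 1000000 counts of its library. For each contig, N is log2 of the mean CPM plus 0.5 after nkx1-1 RNAi over the mean CPM plus 0.5 of its controls, and M is the same ratio for myoD RNAi over its own controls. A member had N at or below −0.3, M above −0.15, and no overlap in CPM between nkx1-1 RNAi animals and their controls. Without the condition on M, 97 contigs qualified, so 39 were set aside because they were also lower after myoD RNAi. Without the condition on overlap there were 329.

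The animals were intact asexual planarians of Schmidtea mediterranea, strain CIW4, with 1 library for each animal, according to the design text and the tissue label. The extraction text of the same records speaks of wounds of tail fragments, with 5 wounds per replicate, which differs from these labels. 7 animals were fed nkx1-1 dsRNA 12 times in 9 weeks, against 5 controls on the same schedule, and 6 were fed myoD dsRNA 10 times in 7 weeks, against 6 controls on that schedule. Controls of both schedules received dsRNA of the C. elegans gene unc-22. Feeding acts on all tissues of an animal, and a whole-animal library mixes all cell types, so fewer cells of a type and less RNA per cell cannot be told apart in any result below.

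Planarians replace their differentiated cells throughout life from dividing stem cells called neoblasts, and RNA interference kept up over weeks therefore shows in tissues as they turn over. The body wall holds layers of circular, diagonal and longitudinal muscle fibres. The homeobox transcription factor gene nkx1-1 is needed for circular fibres and the bHLH transcription factor gene myoD for longitudinal fibres. Planarian muscle cells also make much of the extracellular matrix and express the positional signals that pattern the body. Contigs carry only assembly IDs, and no table of names or sequences was used here, so neither the level of the targeted genes nor marker genes of any cell type could be looked up, and no role is given to any contig.

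Libraries held 9757113 to 18136698 counts, the fewest in nkx1-1 RNAi replicate 2. The samples are labelled as separate animals, and p-values measure the spread between libraries, which is that between animals if these labels hold. On the first principal component of the 500 most variable contigs, which held 55.1% of the variance, 12-feeding control replicate 3 lay at 6.47, against −13.3 to −7.24 for the other 12-feeding controls and 9.36 to 16.5 for the 10-feeding controls. In nkx1-1 RNAi replicate 1 a single contig, dd_Smed_v4_4_1_1, took up 6.79% of all counts, and its share was 0.0393% to 0.391% in the remaining 6 nkx1-1 RNAi libraries. Results that rest on these libraries are given with and without them.

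The lowering after nkx1-1 RNAi was moderate for most of the 58 contigs and deep for a few. The mean CPM after nkx1-1 RNAi was 75.2% of the control mean for the median member, with quartiles of 71.7% and 79.3% and a range of 17.5% to 80.7%. N had a median of −0.40 over the members, against 0.04 over all 15382 contigs. 10 members had N at or below −0.5, 3 had N at or below −1, and 21 lay above −0.35, close to the limit of the rule. The lowest control exceeded the highest nkx1-1 RNAi animal by a factor of 1.06 at the median, with a range of 1.005 to 2.14, so that for most members the groups were separate by a narrow margin. At the borders of the rule, the last member inside had N of −0.303 and the next contig outside −0.299, the values for M were −0.137 inside and −0.156 outside, and the ratio of lowest control to highest RNAi animal was 1.005 inside and 0.999 outside.

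**Figure D1:**
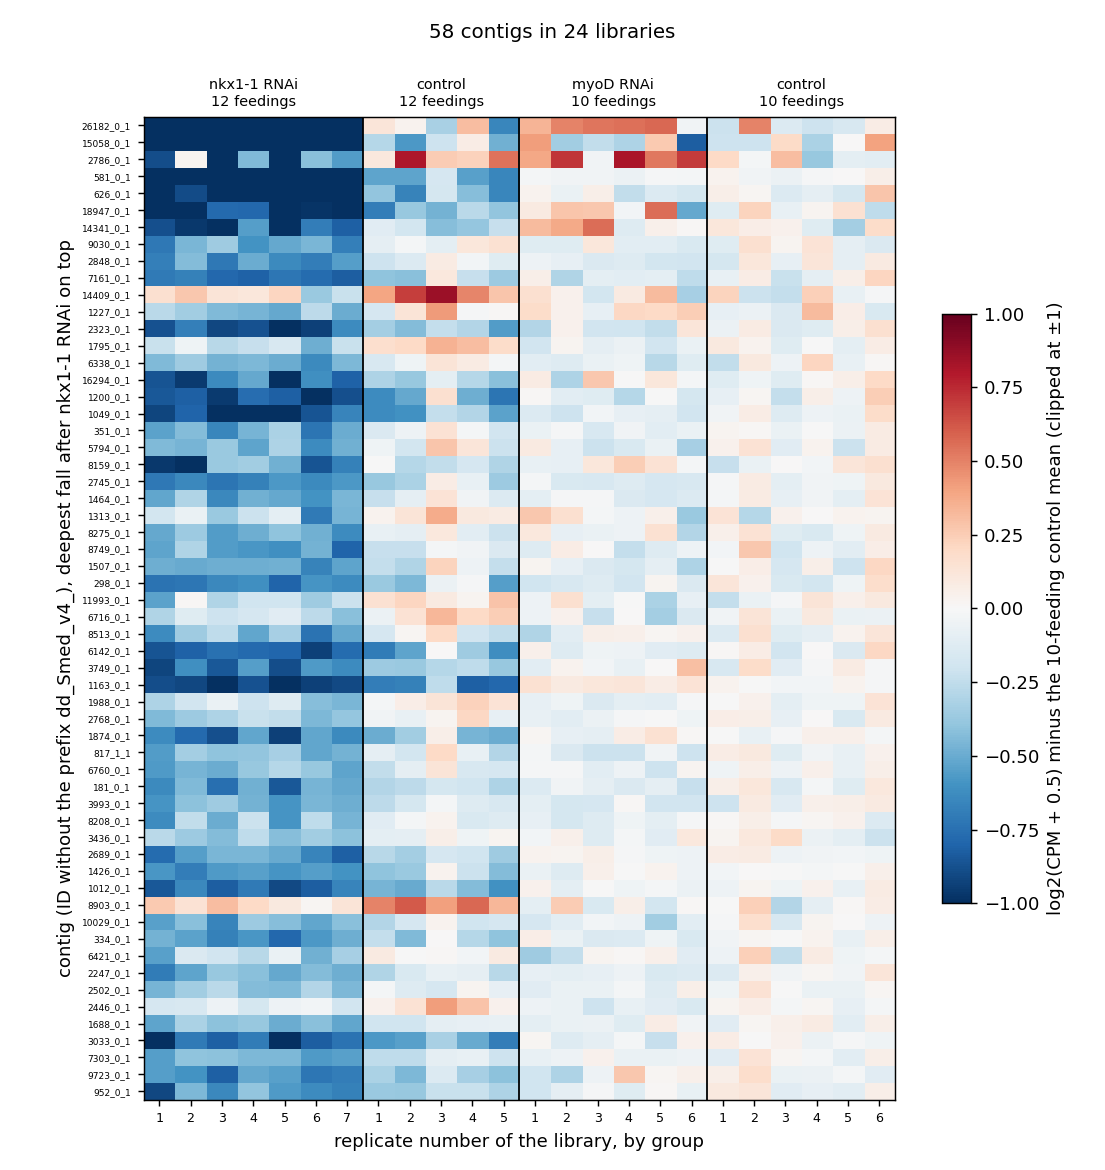
CPM of the 58 contigs (rows, deepest N on top) in the 24 libraries (columns, by group and replicate), as log2 of CPM plus 0.5 minus log2 of the mean CPM plus 0.5 of the 10-feeding controls, with blue lower and red higher. The nkx1-1 RNAi columns are the bluest, and for 42 contigs the 12-feeding control columns are lower than the 10-feeding ones on average by the fitted fold change.

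Counts of calls say little here, because the contrast itself chose the contigs. An edgeR quasi-likelihood fit of the whole count table called 56 of the 58 lower after nkx1-1 RNAi (adjusted p under 0.05), against 2.08% of the 16598 contigs tested. No overlap in this direction was found for 1.00% of the contigs with at least 1 CPM. The fitted log2 fold changes of the members had a median of −0.45 and a range of −2.59 to −0.35, with SEs of 0.05 to 0.30. The 2 members not called were dd_Smed_v4_1163_0_1, at −0.41 ± 0.12 (SE), and dd_Smed_v4_1874_0_1, at −0.39 ± 0.11 (SE) (a contig singled out after its values were seen). The authors' deposited table for nkx1-1 had 54 of the 58 lower at an adjusted p under 0.05, against 0.882% of its contigs with a value, and the ratios of members ran from 0.171 to 0.785. Members made up 56 of the 346 contigs called lower after nkx1-1 RNAi, or 16.2%.

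Among the members, dd_Smed_v4_26182_0_1 lay lowest relative to its controls. Its level was 0.130 CPM in the lowest, 0.221 CPM in the median and 0.410 CPM in the highest nkx1-1 RNAi animal, against 1.79, 1.66, 1.19, 2.11 and 0.847 CPM in the 12-feeding controls. All 7 RNAi animals lay below the lowest control by a factor of at least 2.07, on 2 to 6 counts per RNAi library and 12 to 37 per control library. The means were 0.266 ± 0.123 CPM (SD, n = 7) and 1.52 ± 0.502 CPM (SD, n = 5), a fitted log2 fold change of −2.59 ± 0.30 (SE), which was the most negative of all 16598 contigs tested. Its authors' deposited ratio was 0.171. Its relation to the gene targeted by the dsRNA was not tested.

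The contig dd_Smed_v4_15058_0_1 showed the next deepest lowering. It had 0.370, 0.546 and 0.666 CPM in the lowest, median and highest nkx1-1 RNAi animal, against 1.85, 1.43, 1.98, 2.51 and 1.55 CPM in the 12-feeding controls. The lowest control was 2.14 times the highest RNAi animal, the widest gap of the 58, on 4 to 12 counts per RNAi library and 22 to 44 per control library. Its level after myoD RNAi, 2.14 ± 0.824 CPM (SD, n = 6), overlapped with that of the 10-feeding controls, 2.37 ± 0.567 CPM (SD, n = 6).

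Larger counts stood behind dd_Smed_v4_581_0_1, which was singled out after its values were seen for having the smallest adjusted p of the members. It had 77.1, 87.6 and 102 CPM in the lowest, median and highest nkx1-1 RNAi animal, against 156, 155, 199, 153 and 142 CPM in the 12-feeding controls. The nkx1-1 RNAi mean of 89.4 ± 8.87 CPM (SD, n = 7) was 55.6% of the control mean of 161 ± 21.99 CPM (SD, n = 5). In the 10-feeding schedule the animals were tightly grouped and overlapped, at 219 ± 2.63 CPM after myoD RNAi and 224 ± 6.81 CPM in controls (SD, n = 6 each).

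The 2 members with the highest mean CPM were dd_Smed_v4_181_0_1 and dd_Smed_v4_351_0_1, and both lay nearer to the typical member in size. The first had 954, 1208 and 1269 CPM in the lowest, median and highest nkx1-1 RNAi animal, against 1406, 1433, 1525, 1499 and 1388 CPM in the 12-feeding controls. Its group means were 1149 ± 123 CPM (SD, n = 7) and 1450 ± 59.3 CPM (SD, n = 5), and the fitted log2 fold change was −0.37 ± 0.09 (SE). The second had 816, 957 and 1087 CPM after nkx1-1 RNAi, against 1224, 1302, 1497, 1335 and 1181 CPM in controls, with a log2 fold change of −0.50 ± 0.08 (SE). In both contigs the gap between the highest RNAi animal and the lowest control was narrow, with a ratio of 1.09 for each. CPM is not divided by contig length, so levels of different contigs are not compared.

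**Figure D2:**
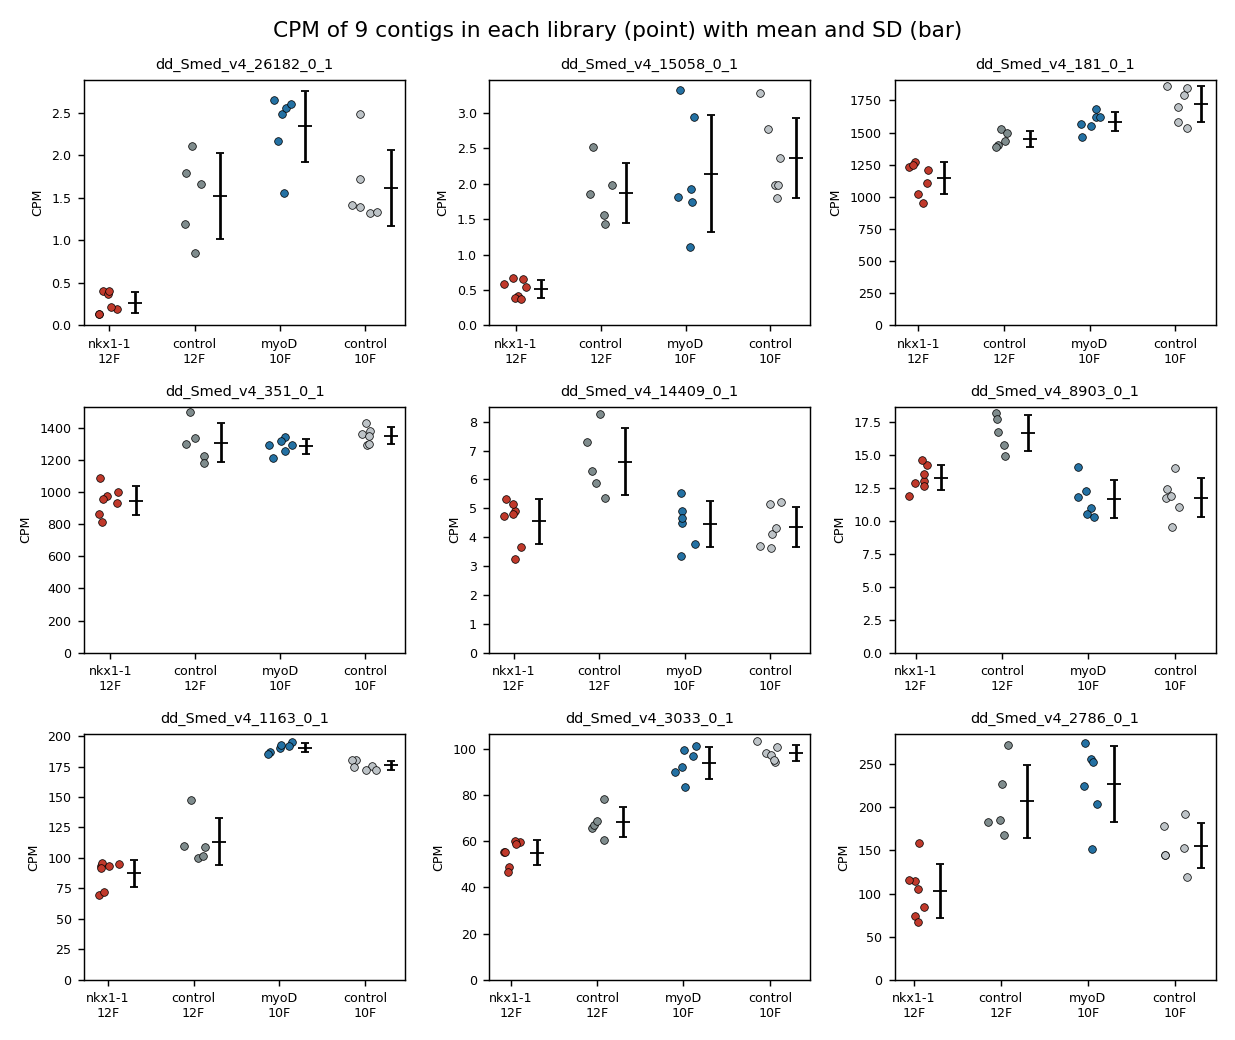
CPM of 9 contigs in each library (points), with mean and SD beside them, for nkx1-1 RNAi and control animals after 12 feedings (12F) and myoD RNAi and control animals after 10 feedings (10F). In each panel all 7 nkx1-1 RNAi points lie below all 5 points of the 12-feeding controls, as the rule requires, while the height of the 10-feeding groups differs from contig to contig.

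The summed level of the 58 contigs is given for each group as a description, since the rule fixes the separation of nkx1-1 RNAi animals from their controls. It was 4549 to 5223 CPM in nkx1-1 RNAi animals, with a mean of 4846 ± 245 CPM (SD, n = 7), against 6074 to 7332 CPM in 12-feeding controls, with a mean of 6520 ± 504 CPM (SD, n = 5). In the other schedule it was 6929 to 7247 CPM after myoD RNAi, with a mean of 7051 ± 117 CPM (SD, n = 6), against 6944 to 7812 CPM in 10-feeding controls, with a mean of 7365 ± 349 CPM (SD, n = 6). Much of this sum came from dd_Smed_v4_181_0_1 and dd_Smed_v4_351_0_1. Their means were 1149 and 947.5 CPM after nkx1-1 RNAi and 1450 and 1308 CPM in 12-feeding controls. Of the 12-feeding controls, replicate 3 had the highest sum, 7332 CPM, which lay above all myoD RNAi sums and within the range of the 10-feeding controls, and the other 4 lay at 6074 to 6651 CPM. That animal had the highest level of its group for 40 of the 58 contigs and the lowest for 3. In CPM from column totals, the controls nearest to the RNAi animals were replicates 1 and 5, which were lowest for 23 and 21 contigs.

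In nkx1-1 RNAi animals, whose spread the rule also limits, the median log2 difference from the control mean over the 58 contigs ran from −0.45 in replicate 1 to −0.33 in replicate 4. This order is that of CPM from column totals and was not computed with other scaling. In replicate 1 a single contig took 6.79% of counts. Its TMM factor, a scaling factor that corrects for such contigs, was 0.898, against 0.986 to 1.08 in the other nkx1-1 RNAi libraries. A factor below 1 raises the scaled value of a library. Replicate 2, the library with the fewest counts, was the highest of its group for 17 contigs, and replicate 4, the one with the most counts, for 15. Medians of the 12-feeding controls ran from −0.09 in replicate 5 to 0.17 in replicate 3. The TMM factor of replicate 5 was 0.934, against 0.975 to 0.999 in the other 12-feeding controls, so its place also depends on the scaling.

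**Figure D3:**
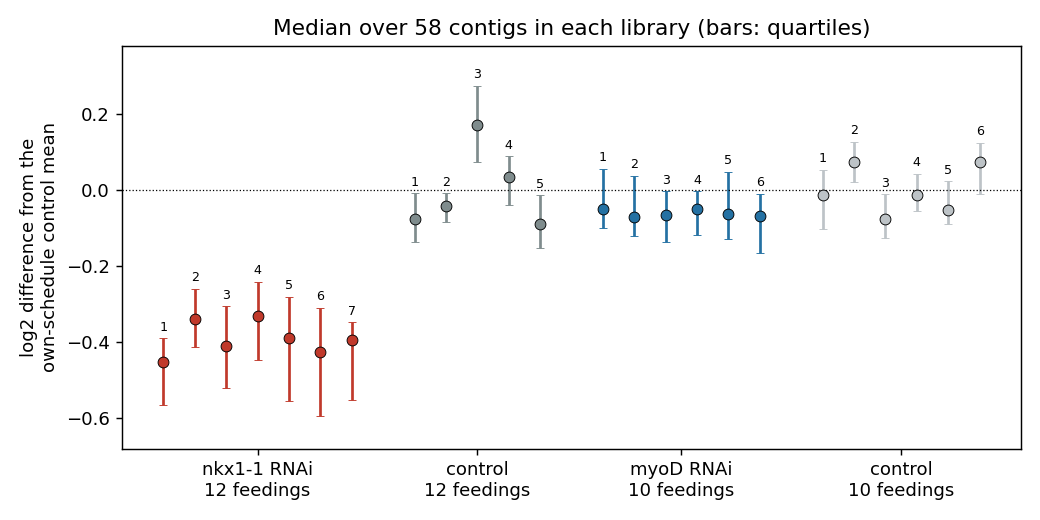
For each library (numbered by replicate), the median over the 58 contigs of log2 CPM plus 0.5 minus the mean of the controls of the same schedule, with bars for the quartiles over contigs. In CPM from column totals, without TMM scaling, the 7 nkx1-1 RNAi animals lie between −0.45 and −0.33. On the same scale 12-feeding control replicate 3 lies highest, at 0.17.

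After myoD RNAi the members had been limited from below by the rule but not from above. Their fitted log2 fold changes had a median of −0.06, against −0.01 over the 16352 contigs tested. Of the 58, 45 were negative, against 53.9% of the contigs tested, although the rule had cut off the contigs lowered most. Calls were made for 2 members, both higher, against 7.53% of contigs called in either direction, and 1 member had all myoD RNAi animals above all controls, against 3.37% of contigs. At an adjusted p under 0.1, 3 members were higher and 1 was lower. In the same edgeR fit 12 members had an unadjusted p under 0.05, and 9 of these were lower. The share of all contigs at that unadjusted level was not computed. The authors' deposited table for myoD had 1 member below an adjusted p of 0.05, against 3.72%. The rule excludes contigs lowered after myoD RNAi, so the shares called in either direction are reduced by the choice of contigs. The share with all myoD RNAi animals above all controls counts raised contigs only, which the rule did not limit.

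The contig dd_Smed_v4_2786_0_1 was lower after nkx1-1 RNAi and higher after myoD RNAi. It had 67.1, 106 and 159 CPM in the lowest, median and highest nkx1-1 RNAi animal, against 168, 272, 185, 183 and 227 CPM in the 12-feeding controls. After myoD RNAi it had 152, 238.5 and 275 CPM in the lowest, median and highest animal, against 119, 149 and 193 CPM in the 10-feeding controls, where the lowest RNAi animal overlapped with 3 controls. The log2 fold changes were −1.05 ± 0.19 (SE) for nkx1-1 RNAi and 0.56 ± 0.12 (SE) for myoD RNAi, and the authors' deposited ratios were 0.484 and 1.47.

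A similar pair of values was found for dd_Smed_v4_26182_0_1, the member with the deepest lowering. It had 1.56, 2.52 and 2.65 CPM in the lowest, median and highest myoD RNAi animal, against 1.32, 1.41 and 2.48 CPM in the 10-feeding controls, and the groups overlapped. Its log2 fold change of 0.55 ± 0.17 (SE) was not called, with an edgeR adjusted p of 0.0625, and it was called without 10-feeding control replicate 2 (0.70) or myoD RNAi replicate 6 (0.63).

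The other member called after myoD RNAi was dd_Smed_v4_1163_0_1. Its 6 myoD RNAi animals had 185 to 195 CPM with a median of 191 CPM, all above the 10-feeding controls, which had 172 to 181 CPM with a median of 175 CPM. The difference was small, 0.12 ± 0.04 (SE) on the log2 scale, and its call was lost without any of 10-feeding control replicates 2, 3, 4 and 6 or myoD RNAi replicates 1, 2, 3, 4 and 6, at log2 fold changes of 0.11 to 0.13.

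The difference of both RNAi effects, nkx1-1 minus myoD, was fitted on all 24 libraries. It used both contrasts of the rule and is given as a description. Its median over the 58 members was −0.38 on the log2 scale, with a range of −3.13 to −0.23, and 17 members (29.3%) had a called, more negative nkx1-1 effect, against 0.256% of the 17159 contigs tested. The largest differences were −3.13 ± 0.34 (SE) for dd_Smed_v4_26182_0_1 and −1.71 ± 0.34 (SE) for dd_Smed_v4_15058_0_1. For the other 41 members the direct contrast gave no call, so the label of a lowering after nkx1-1 RNAi alone describes the thresholds for them and not a tested difference. Leaving out single animals moved the count of 17. It became 10 without myoD RNAi replicate 1 or 4, 12-feeding control replicate 4, or replicate 3 or 5 of the 10-feeding controls. It became 11 without nkx1-1 RNAi replicate 6 or 7, myoD RNAi replicate 3, or replicate 5 of the 12-feeding controls. It became 32 and 27 without nkx1-1 RNAi replicate 1 or 2, and 20 without both libraries that stood apart. In this difference the target gene cannot be told apart from the feedings, the weeks or the cohort.

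**Figure D4:**
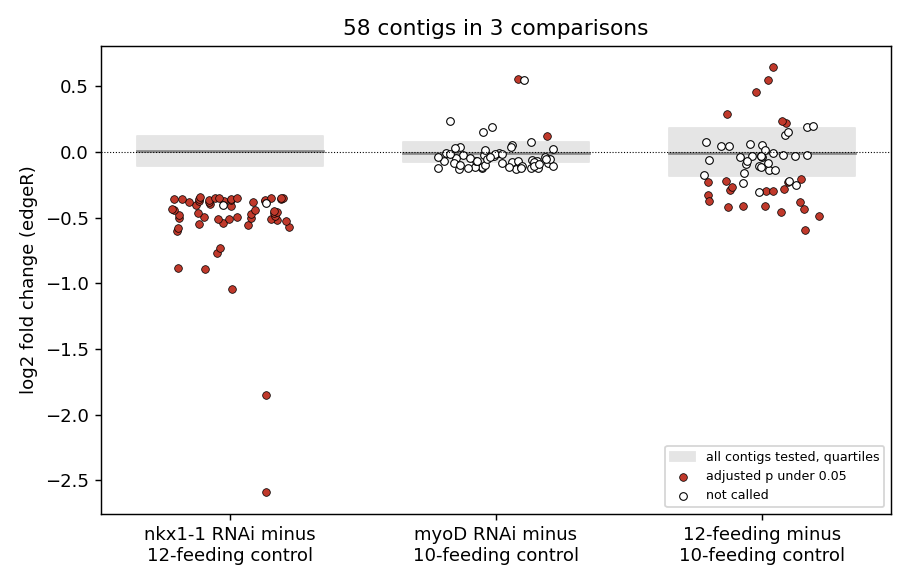
Fitted log2 fold changes of the 58 contigs (points, red where the edgeR adjusted p was under 0.05) in 3 comparisons, over grey bands that mark the quartiles and the median of all contigs tested. The nkx1-1 values lie at −0.35 or below by the choice of contigs, the myoD values have a median of −0.06 with 2 called higher and a maximum of 0.56, and the values between the control groups spread to both sides with 19 called lower and 6 called higher.

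The control animals of the 2 schedules had not been compared in the choice of contigs, although their libraries enter N and M. A high level in 12-feeding controls favours membership, yet more members were lower than higher there relative to 10-feeding controls. Of the 58, 19 (32.8%) were called lower in 12-feeding than in 10-feeding controls, against 16.8% of the 16262 contigs tested, and 6 (10.3%) were called higher, against 18.2%. The median log2 fold change of members was −0.10, against −0.01 over all contigs tested. The lower share was not particular to these contigs: of the other 290 contigs called lower after nkx1-1 RNAi, 37.2% were called lower and 8.62% higher between the controls, with a median of −0.12. Without 12-feeding control replicate 3, the counts of members were 26 lower and 8 higher. These comparisons share the 12-feeding controls with N, and the number of feedings, the weeks and the cohort cannot be told apart between schedules.

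The 12-feeding control mean was at or below the 10-feeding control mean for 43 of the 58 contigs in CPM, and the nkx1-1 RNAi mean was the lowest of the 4 groups for 56. The 10-feeding control mean lay between the nkx1-1 RNAi mean and the 12-feeding control mean for 13 contigs, and at or below the nkx1-1 RNAi mean for 2. All nkx1-1 RNAi animals were below all 10-feeding controls for 49 of the 58, against 12.8% of contigs with at least 1 CPM. The rule chose contigs for low values in nkx1-1 RNAi animals, which favours such an order. The counts of 56 and 49 are therefore descriptions. All 12-feeding controls were below all 10-feeding controls for 12 members, against 9.25% of contigs, and above them for 3, against 7.14%.

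The member lowest in 12-feeding relative to 10-feeding controls was dd_Smed_v4_1163_0_1. It had 109, 110, 147, 99.8 and 102 CPM in the 12-feeding controls, all below the 172 to 181 CPM of the 10-feeding controls. It fell by 0.59 ± 0.08 (SE) on the log2 scale (edgeR adjusted p = 7.17e-05), and the nkx1-1 RNAi animals lay lower still, at 69.6 to 95.7 CPM. For dd_Smed_v4_3033_0_1 the 12-feeding controls had 65.8, 67.1, 78.4, 68.9 and 60.6 CPM, against 94.1 to 104 CPM in 10-feeding controls, without overlap. It fell by 0.49 ± 0.05 (SE) on the log2 scale (edgeR adjusted p = 2.00e-05), and nkx1-1 RNAi animals had 46.4 to 60.3 CPM.

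In the other direction, dd_Smed_v4_14409_0_1 and dd_Smed_v4_8903_0_1 rose most in 12-feeding relative to 10-feeding controls, and for them the nkx1-1 RNAi animals were at or near the 10-feeding level. The first had 5.87, 7.31, 8.26, 6.28 and 5.36 CPM in 12-feeding controls, against 3.62 to 5.21 CPM in 10-feeding controls. Its log2 change was 0.64 ± 0.13 (SE; edgeR adjusted p = 0.00153). Its nkx1-1 RNAi animals had 3.25 to 5.33 CPM and overlapped with the 10-feeding controls. The second had 16.8, 18.2, 15.7, 17.7 and 14.9 CPM in 12-feeding controls, against 9.51 to 14.0 CPM in 10-feeding controls. Its log2 change was 0.55 ± 0.08 (SE; edgeR adjusted p = 0.000197). Its nkx1-1 RNAi animals had 11.9 to 14.6 CPM, within or just above the 10-feeding range. These are the 2 members whose 10-feeding control mean was at or below the nkx1-1 RNAi mean.

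Apart from the groups, pairs of members had low median correlations from animal to animal. Deviations from the group means were correlated over the 24 libraries, which share depth and scaling across contigs, and the median Pearson correlation over 1653 pairs of members was 0.224, against 0.103 over all pairs of contigs with at least 1 CPM. Without both libraries that stood apart the medians were 0.142 and 0.0558, within the 12 libraries of the 12-feeding schedule 0.297 and 0.151, and within the 12 libraries of the 10-feeding schedule 0.141 and 0.0419. The 12-feeding libraries include both that stood apart. The median mean CPM was 51.8 for members, against 16.1 for all contigs with at least 1 CPM, and the pairs were not matched for level. The contigs most like the mean member profile were dd_Smed_v4_6142_0_1 (correlation 0.850) and dd_Smed_v4_1200_0_1 (0.808), over 24 libraries. Among the 12-feeding libraries both were highest in control replicate 3. The first had 71.1 CPM there, against 43.5 to 55.6 CPM in the other 12-feeding controls and 37.0 to 42.2 CPM after nkx1-1 RNAi. The second had 74.4 CPM there, against 39.9 to 47.3 CPM in the other 12-feeding controls and 31.7 to 39.2 CPM after nkx1-1 RNAi. All 58 IDs belong to different components of the assembly, so no 2 members are named as variants of 1 component.

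The list itself depends on how libraries are scaled and on single animals. With TMM-scaled CPM, which corrects for contigs that take a large share of a library, the rule gave 120 contigs, of which 53 were among the 58. The TMM factors were 0.898 to 1.08 in nkx1-1 RNAi libraries and 0.934 to 0.999 in 12-feeding controls, and a factor above 1 lowers the scaled value of a library. With DESeq2 size factors the rule gave 105 contigs, 51 of them shared. Without 12-feeding control replicate 1 or 5, or nkx1-1 RNAi replicate 2, it gave 90, 108 and 90 contigs, with 57, 57 and 58 of the members among them. Without 12-feeding control replicate 3 it gave 67 with 41 of the members, and without this library and nkx1-1 RNAi replicate 1 it gave 63 with 36 of the members.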

How the data were processed

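Polyadenylated RNA was sequenced from 24 animals. The authors deposited whole-number counts per contig, without normalization. The submitters' processing notes name Bowtie 1.1.1, cutadapt 1.8, CASAVA, DESeq and SAMtools, with no role or order. No strand or aligner setting is given in the sources used here. Per the file headers, the authors' deposited tables hold a ratio of RNAi over control and p-values, and a log2 ratio, which was not used here. CPM was computed from column totals, as the rule for the members states. Tests of the counts used edgeR 4.0.16 under R 4.3.3 (default filterByExpr, TMM, glmQLFit and glmQLFTest, two-sided, Benjamini-Hochberg over all contigs tested), each RNAi group with its own control, and on 24 libraries for the difference of effects. The SE is the log2 fold change over the square root of F. The fits were tested on simulated data. DESeq2 1.42.0 and limma 3.58.1 (voom) were alternatives. The members, the lists and both libraries that stood apart were chosen with earlier results of these data known. Contigs named were the 2 deepest called, the 2 with the most CPM, the 2 with the largest called change in each direction between controls, the 2 highest after myoD RNAi, the 2 with the most negative called difference of effects and the 2 most like the mean member profile. Planned marker lists were not run, since no table of names was used here. Library depth of 9757113 to 18136698 counts sets the counting precision, which is poorest for the 3 members with fewer than 10 counts in some libraries.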

Additional observations from a re-analysis of the deposited data

Results flagged for a closer look

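Among 48 sets of values (the summed level and 11 named contigs in 4 groups), 3 held a single animal far from the rest of its group, where chance gives about 1 in 20, or 2.4. The sets share the same libraries and are not independent, so this number is only a rough guide. The contig dd_Smed_v4_1163_0_1 had 147.4 CPM in 12-feeding control replicate 3, against 99.8 to 109.9 CPM in the other 12-feeding controls. In the same animal dd_Smed_v4_1200_0_1 had 74.4 CPM, against 39.9 to 47.3 CPM. That contig was named for its likeness to the mean member profile, whose largest deviation was in this animal, so the naming favoured its gap. In 10-feeding control replicate 2 dd_Smed_v4_26182_0_1 had 2.48 CPM, against 1.32 to 1.73 CPM in the other 10-feeding controls.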

How the results depend on the processing

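The count of members called lower after nkx1-1 RNAi, 56, was 44 to 58 when single libraries were left out, 56 without both libraries that stood apart, and 56 to 58 with RLE scaling, no filter, DESeq2, voom or an adjusted p of 0.1. With a replicate block it was 3, on the 10 libraries whose numbers both groups share. The replicate numbers were not taken to pair the animals, since not every same-numbered pair had correlated deviations. The correlations were −0.169 to 0.0329 for nkx1-1 RNAi, −0.255 to 0.176 for myoD RNAi and −0.0927 to 0.276 between the controls. Replicates 2 and 4 matched their own number best for myoD RNAi, as did replicates 1, 4 and 5 between the controls and none for nkx1-1 RNAi. With this replicate block the difference of effects was called for 3 members and the myoD comparison for 0 by edgeR, with 12 at an unadjusted p under 0.05. The difference of effects, called for 17, was called for 30 at an adjusted p under 0.1, for 30 with DESeq2 and 27 with voom, and for 10 to 32 without single libraries. The 2 calls after myoD RNAi were 4 at an adjusted p under 0.1 (3 higher and 1 lower), 1 without a filter, and 1 to 2 without single libraries. The rule gave 120 contigs with TMM-scaled CPM, 105 with DESeq2 size factors and 50 to 108 without single libraries. The causes of these differences were not tested. The counts between controls stayed within 1.5 times of 19 lower and 6 higher under each alternative run, at 16 to 26 and 6 to 8. For the 11 named contigs, each alternative setting was counted once per contig. The nkx1-1 result was the same in 169 of these, with a call lost in 27 and gained in 2. After myoD RNAi the counts were 172, 12 and 3, and for the difference of effects 317, 8 and 5. Between controls the result was the same in 168, with a call lost in 8. No named contig changed direction with a call.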
